A study of Mus musculus with 28 samples.

Results

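Keratins and keratin-associated proteins were followed in hair follicle stem cells sorted from mouse skin. Alkbh5, the m6A demethylase of RNA, was conditionally knocked out in one group (cKO) and intact in the other, the wild type (WT). Genes were taken by symbol, as numbered Krt genes and numbered Krtap genes without pseudogenes. This gave 109 of 56691 listed genes in the bulge table (54 keratins and 55 keratin-associated genes), 108 of 47243 in the hair germ SHERRY2 table and 109 of 57010 in the hair germ SMART-seq table. All mice were at postnatal day 69, and each dataset held 2 Alkbh5 cKO and 2 wild-type mice. Bulge stem cells were measured by SHERRY2, a method in which a transposase cuts and tags hybrids of RNA and cDNA, from 200 ng of RNA. Hair germ stem cells were measured by SHERRY2 and, in other libraries, by SMART-seq, which amplifies full-length cDNA, each from 40 ng of RNA. Of 28 samples these 12 RNA-seq libraries are used, and the 16 m6A libraries were not analysed here. No source used here gives the Cre driver, the deleted exon or the sorting markers.

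Keratins are the intermediate filament proteins of epithelial cells. Each filament needs an acidic type I keratin, encoded in mice by a cluster on chromosome 11, and a basic type II keratin, encoded by a cluster on chromosome 15. The pairs change with cell state: Krt5 and Krt14 in basal cells, Krt1 and Krt10 once epidermal cells leave the basal layer, Krt6, Krt16, Krt17 and Krt75 in the outer sheath and companion layer, Krt71 with Krt25 to Krt28 in the inner root sheath, and the hair keratins in the cortex of the shaft. Keratin-associated proteins, rich in cysteine or in glycine and tyrosine, embed the hair keratins of the shaft in a matrix. Resting bulge and hair germ cells make basal keratins, and Krt15 is the classical bulge marker among them. Of the 109 genes, 50 lay on chromosome 11, 27 on 15, 22 on 16, 5 on 7, 3 on 10 and 2 on 1.

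Start regions of 5 genes on which the results below turn are shown, from RefSeq on GRCm38.p6, each with 250 bases before and 50 bases after the annotated start and written 5′ to 3′ on the strand of the gene. Krt7 was the keratin called in bulge cells. Krtap17-1 was the keratin-associated gene called in hair germ cells. Krt71 and Krt25 belong to an inner sheath set that stood out in 1 hair germ library, and Krt77 to a suprabasal set that stood out in others. Capitals mark TATAAA, the core of the TATA box.
Krt7 (chr15:101412153-101412452, plus strand): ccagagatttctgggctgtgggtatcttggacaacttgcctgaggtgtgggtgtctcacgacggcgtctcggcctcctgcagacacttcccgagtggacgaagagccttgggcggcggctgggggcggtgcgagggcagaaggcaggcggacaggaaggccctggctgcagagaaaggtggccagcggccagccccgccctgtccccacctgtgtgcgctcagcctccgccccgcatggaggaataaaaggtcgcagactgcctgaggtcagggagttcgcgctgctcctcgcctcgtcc
Krt77 (chr15:101869656-101869955, minus strand): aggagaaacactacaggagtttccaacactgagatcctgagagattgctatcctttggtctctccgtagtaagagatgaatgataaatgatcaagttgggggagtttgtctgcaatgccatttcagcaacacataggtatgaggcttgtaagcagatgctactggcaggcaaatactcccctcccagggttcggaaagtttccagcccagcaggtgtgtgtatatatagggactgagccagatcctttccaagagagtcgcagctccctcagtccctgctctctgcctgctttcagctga
Krt71 (chr15:101743048-101743347, minus strand): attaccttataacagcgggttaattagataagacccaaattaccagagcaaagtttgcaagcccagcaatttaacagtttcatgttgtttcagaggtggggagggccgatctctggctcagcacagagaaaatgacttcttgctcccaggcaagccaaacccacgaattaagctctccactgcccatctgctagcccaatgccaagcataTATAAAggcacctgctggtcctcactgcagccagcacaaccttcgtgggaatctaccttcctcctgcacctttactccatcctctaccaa
Krt25 (chr11:99322902-99323201, minus strand): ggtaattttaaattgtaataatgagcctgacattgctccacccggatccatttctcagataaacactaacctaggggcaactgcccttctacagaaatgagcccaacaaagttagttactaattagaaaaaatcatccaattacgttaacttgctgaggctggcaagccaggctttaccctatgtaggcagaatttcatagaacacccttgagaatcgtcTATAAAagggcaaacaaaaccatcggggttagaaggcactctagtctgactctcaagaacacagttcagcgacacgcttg
Krtap17-1 (chr11:99993945-99994244, minus strand): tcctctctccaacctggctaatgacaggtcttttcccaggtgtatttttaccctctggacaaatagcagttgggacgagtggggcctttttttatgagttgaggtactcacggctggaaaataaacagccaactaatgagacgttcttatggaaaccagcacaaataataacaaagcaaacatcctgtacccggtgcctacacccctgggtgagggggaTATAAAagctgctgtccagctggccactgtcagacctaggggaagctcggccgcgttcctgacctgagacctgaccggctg
Start regions were found for 84 of the genes, with 85 regions in all. On either strand, 70.6% of these 85 regions held TATAAA, against 13.6% of all 32851 regions of the same length. The share differed by class: 41 of 48 keratin-associated genes and 7 of 7 inner sheath keratins had the 6 letters, against 0 of 2 basal and 2 of 8 suprabasal regions. Counted at 20 to 40 bases before the start on the strand of the gene, it was present in 51.8% of the members' regions and in 1.99% of all regions. In the regions above it began 40 bases before the start of Krt71, 30 before Krt25 and 31 before Krtap17-1, and the windows of Krt7 and Krt77 did not hold these letters. The search took these exact letters, so variant forms of the TATA box were not counted. The other motifs searched were AGATAA on either strand, in 24.7% of members' regions and 11.2% of all, TGANTCA, in 14.1% and 7.81%, and GCCNNNGGC, in 9.41% and 16.6%. The last pair read the same on both strands, and matches of different motifs may share bases.

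Bulge libraries held 14676168 to 21187283 reads in genes, hair germ SMART-seq libraries 9001396 to 14416601. Hair germ SHERRY2 libraries were shallower, with 1526070 and 2317407 reads for the cKO mice, against 1513001 and 488648 for the WT mice. Alkbh5 was at 4.45 and 2.52 reads per 1000000 reads in genes (CPM) in cKO bulge libraries, against 98.9 and 92.1 in WT, and at 17.7 and 6.90 in cKO hair germ SHERRY2 libraries, against 62.8 and 61.4 in WT. In SMART-seq it was at 84.8 and 105.1 CPM in the libraries labelled cKO, against 132 and 95.3 in WT. The groups overlapped there, so any direction from SMART-seq rests on labels that this gene did not bear out. By Xist and Y-linked genes the mice were of mixed sex: both SMART-seq libraries numbered 2, bulge WT 2 and hair germ SHERRY2 cKO 1 had the male pattern and the others the female one. Summed bulge and hair germ markers were present in every library: 6 stem cell genes such as Cd34 and Lhx2 summed to 1441 to 1810 CPM in cKO and 1300 to 1457 CPM in WT bulge libraries, and 5 hair germ genes such as Lgr5 and Cdh3 summed to 827 to 949 CPM in libraries labelled cKO and 966 to 975 CPM in WT libraries by SMART-seq, and to 444 to 558 CPM in cKO and 425 to 534 CPM in WT libraries by hair germ SHERRY2. The hair germ sum was higher in WT bulge libraries, as given below, than in any hair germ SHERRY2 library. It thus does not set those libraries apart from the bulge. All are bulk samples, so fewer cells of a type and less RNA per cell cannot be told apart.

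In all 12 libraries the basal keratins led. Keratin reads together made up 3.45 to 4.09% of all reads in bulge libraries, 1.82 to 3.71% in hair germ SHERRY2 and 1.90 to 2.57% in SMART-seq. Compared per exonic length, as reads per kilobase scaled to library size (RPKM), Krt5, Krt14 and Krt15 were the 3 highest members in each dataset, with means over the 4 libraries of 6949, 4871 and 3627 RPKM in the bulge, 3388, 4498 and 2518 in hair germ SHERRY2 and 3087, 2443 and 2999 by SMART-seq. The ranges over single libraries overlapped for Krt5 and Krt14 in hair germ SHERRY2 and among the 3 genes by SMART-seq, so their order there is not separated from the spread. Next came the suprabasal Krt10 and Krt77 in the bulge (1550 and 586 RPKM), Krt10 and Krt17 in hair germ SHERRY2 (877 and 771 RPKM), and Krt17 and Krt6a by SMART-seq (1276 and 335 RPKM). Type II keratins together were below type I keratins in every library, with a per-length ratio of 0.710 to 0.831 in the bulge, 0.420 to 0.615 in hair germ SHERRY2 and 0.459 to 0.642 by SMART-seq.

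**Figure D1:**
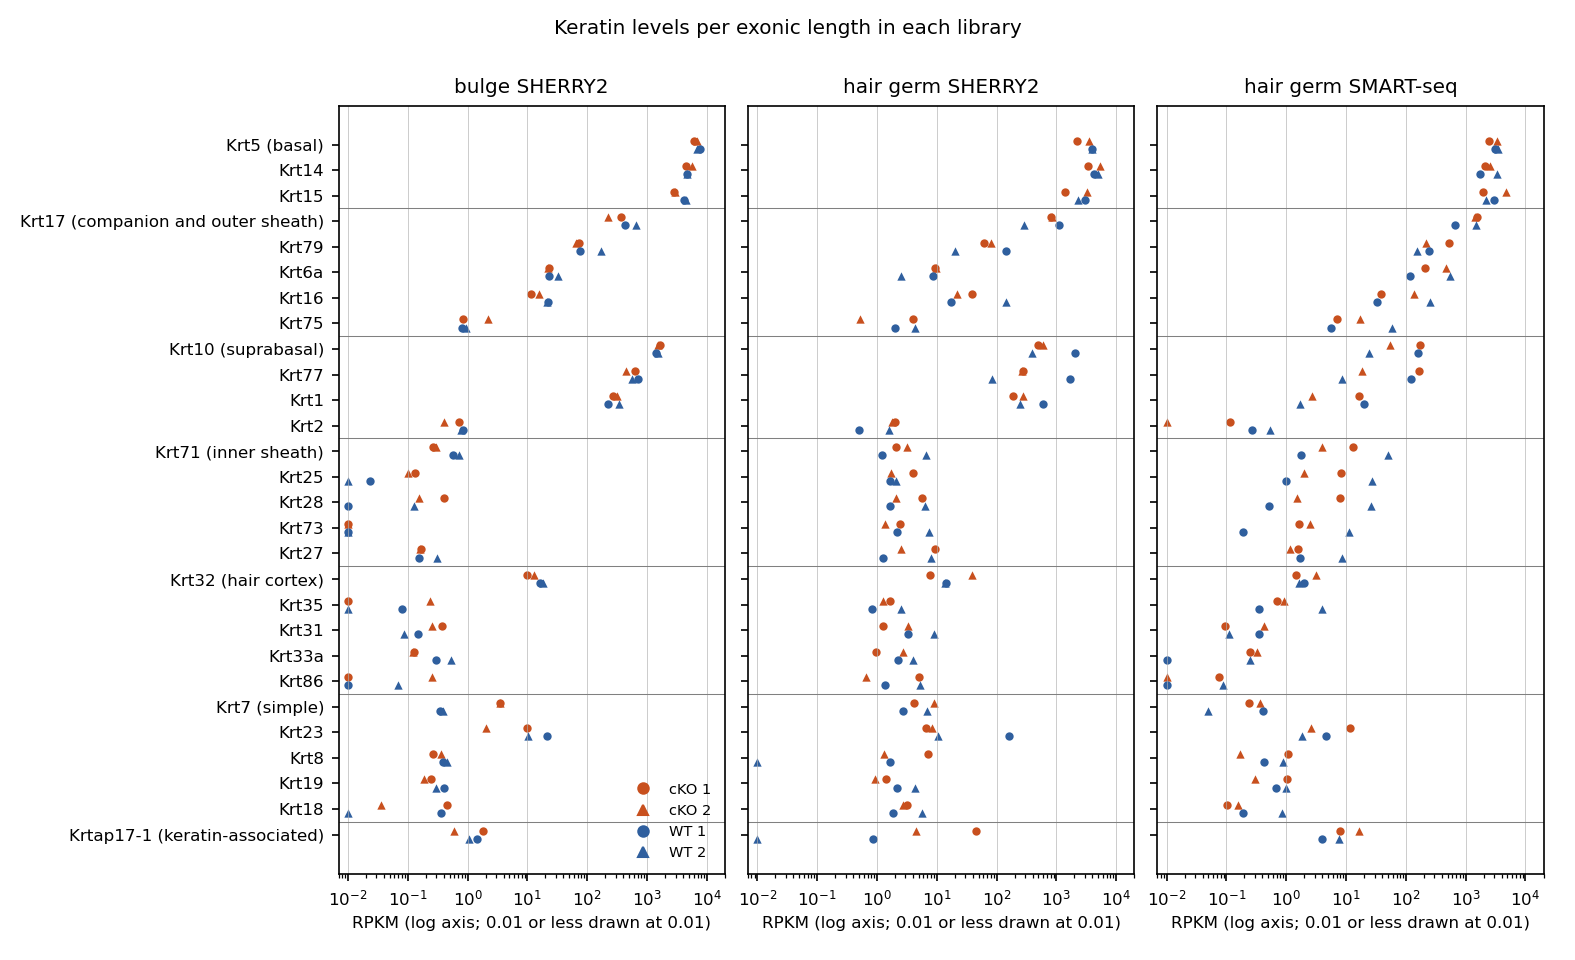
RPKM on a log axis for keratin genes, grouped by class, and Krtap17-1 in the 3 datasets; each point is 1 library, cKO in orange above WT in blue. Krt5, Krt14 and Krt15 lie at 1423 to 7794 RPKM in all 12 libraries, while inner sheath and hair cortex keratins lie orders of magnitude lower, and the 5 inner sheath keratins drawn are highest in WT 2 by SMART-seq.

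Hair shaft genes were near the limit of detection. In the bulge, 55 of 109 members had 0 reads in all 4 libraries, 47 of them keratin-associated, and by SMART-seq 36 had none, 32 of them keratin-associated. A count of 0 allows up to 3 reads, or 0.142 to 0.204 CPM in a bulge library and 0.208 to 0.333 CPM in a SMART-seq library, for counting error alone. Apart from Krtap17-1, the 54 keratin-associated genes together had 4 and 10 reads in cKO and 27 and 9 reads in WT bulge libraries. Hair cortex keratins summed to 20.7 and 27.2 CPM in cKO and 29.9 and 33.8 CPM in WT bulge libraries, most of it from Krt32, a type I keratin of the hair cuticle. In hair germ SHERRY2, 34 to 48 of 53 keratin-associated genes other than Krtap17-1 had a read in a library. However, 91.1 to 97.3% of 1458 olfactory and vomeronasal receptor genes, best known from sensory neurons of the nose, had reads there too, against 1.98 to 3.64% of the 1475 or 1512 listed in the other datasets. That table holds 0 genes without a read in all 4 libraries, against 29737 in the bulge table and 27900 in the SMART-seq table. The keratin-associated genes had a median of 0.723 to 1.66 RPKM in cKO and 0.832 to 2.92 RPKM in WT hair germ SHERRY2 libraries, and 307 receptor genes with a known length 0.561 to 1.29 RPKM in cKO and 0.827 to 2.04 RPKM in WT. Above the 95th percentile of the receptor genes were 11 and 18 of 54 keratin-associated genes in cKO and 12 and 14 in WT libraries, and 5 and 10 of 15 hair cortex keratins in cKO and 7 and 11 in WT. In all 4 libraries at once, 1 keratin-associated gene and 2 hair cortex keratins were above it.

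**Figure D2:**
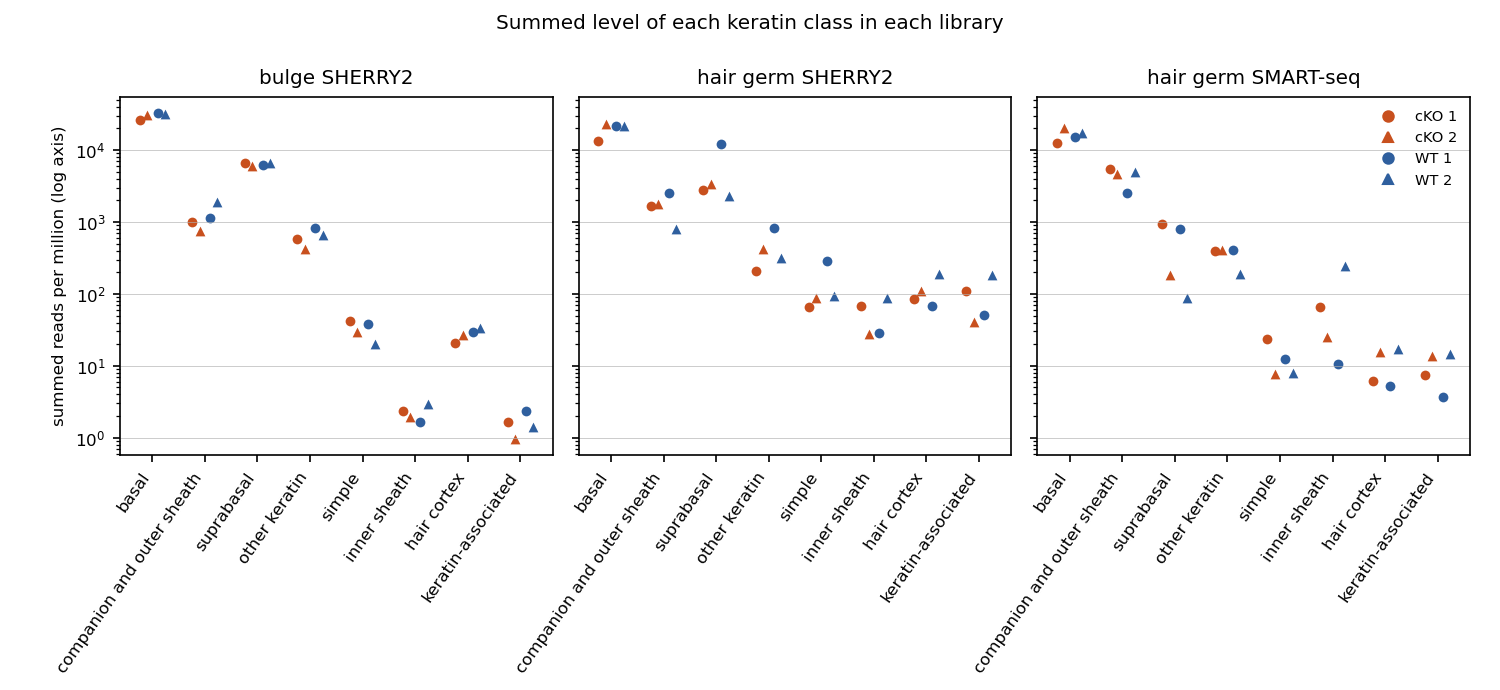
Summed CPM of each keratin class (log axis) in each library, cKO left of WT. Basal keratins are highest everywhere; inner sheath keratins reach 246 CPM in SMART-seq WT 2 against 10.7 CPM in WT 1, and suprabasal keratins reach 12167 CPM in hair germ SHERRY2 WT 1 against 2261 CPM in WT 2.

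The first comparison asked how loss of Alkbh5 changed keratin RNA in bulge stem cells. Krt7, a type II keratin of simple and glandular epithelia, rose in cKO bulge cells. Krt15 and 4 of 6 keratins of the outer sheath and companion layer had both cKO values below both WT values. Krt6b had both above, and Krt75 overlapped between the groups. None of these keratins other than Krt7 passed the test. Of 27 members that passed the filter on low counts, 1 rose and 0 fell at an adjusted p of 0.05 (edgeR quasi-likelihood test, Benjamini-Hochberg over all genes). Of all 15672 genes tested, 3.04% were called, 1.44% higher and 1.6% lower. At an unadjusted p of 0.05 there were 13 members, 4 higher and 9 lower, against 18.9% of all genes. Of the 27, 22 had negative fold changes, with a median log2 of -0.50 against -0.01 over all genes tested. The groups did not overlap in 19 of the 27, against 50.9% of all genes. Both cKO libraries lay below both WT libraries in 15 (55.6%), against 26.2% of all genes, and above in 4 (14.8%), against 24.7%. Of these, Krt13 and Krt33a below and Krt83 above met the filter only through the group where they were high. Krt8 below and Krt6b above would not have met it on the group where they were low alone. Values of these comparisons are CPM scaled by TMM, since the median of all genes was at a log2 of 0.16 without scaling. Without it 19 of 27 were negative, and Krt1, Krt10 and Krt14 changed sign. The markers outside the keratins in this paragraph are given in CPM without TMM scaling. The 6 immune markers summed to 71.5 and 42.5 CPM in cKO and 188 and 149 CPM in WT. The 5 hair germ markers summed to 653 and 427 CPM in cKO and 863 and 713 CPM in WT. Upper follicle and sebaceous markers summed to 763 and 950 CPM in cKO and 610 and 628 CPM in WT: Scd1 was at 410 and 598 CPM in cKO and 196 and 200.0 in WT, and Elovl3 at 7.73 and 7.52 in cKO and 1.09 and 1.09 in WT, while Lrig1 was at 243 and 230 in cKO and 291 and 290 in WT, and Plet1 at 68.0 and 66.4 in cKO and 94.6 and 99.0 in WT. Inner root sheath markers summed to 449 and 534 CPM in cKO and 388 and 427 CPM in WT. Their part in the keratin values was not tested.

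Krt7 (ENSMUSG00000023039) had 23.2 and 23.6 TMM-scaled CPM in cKO bulge libraries, from 375 and 496 reads, against 2.66 and 2.92 in WT, from 52 and 41 reads. The groups were far apart and the libraries within each nearly equal, at 23.4 ± 0.27 in cKO and 2.79 ± 0.18 in WT (SD, n = 2 each), 8.395-fold higher. The log2 fold change was 3.07 (SE 0.25, adjusted p = 0.00223, edgeR), and the gene was called under each of 8 alternatives, at 2.995 to 3.125. In CPM without scaling, summed upper follicle and sebaceous markers and inner root sheath markers were also higher in both cKO libraries than in WT. Those sums are given with the bulge marker lists. Single markers did not all share this, as Lrig1 and Plet1 were lower in both cKO libraries. In TMM-scaled CPM, the scale of the Krt7 values, the inner root sheath sum overlapped between the groups. Gata3, its largest part, overlapped as well, at 366 and 453 in cKO and 352 and 382 in WT. On that scale Tchh was higher in cKO, at 13.6 and 14.5 against 11.8 and 12.5 in WT. Tgm3 was lower, at 44.4 and 35.3 in cKO against 55.7 and 50.9 in WT. The part of these markers in the Krt7 value was not tested. The annotation places Gm671 over its start on the opposite strand, and no source used here says whether counting used strand. Krt10, Krt32 and Krt80 also overlap genes of the opposite strand. In hair germ cells Krt7 was not called: it had 33.0 and 120.8 normalized counts in cKO, against 28.4 and 37.9 in WT, by SHERRY2, and 1.68 and 2.57 TMM-scaled CPM in libraries labelled cKO, against 3.01 and 0.34 in WT, by SMART-seq. Its partners in simple epithelia, Krt18 and Krt19, had at most 16 reads in any bulge library and did not pass the filter. Krt8, the type II simple keratin, passed with 8 to 16 reads a library and was not called (log2 -0.57, SE 0.73). A further member of the simple class, Krt23, had 14.6 and 3.04 scaled CPM in cKO, against 36.5 and 16.7 in WT, with a log2 of -1.61 (SE 0.65, adjusted p = 0.230, edgeR).

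**Figure D3:**
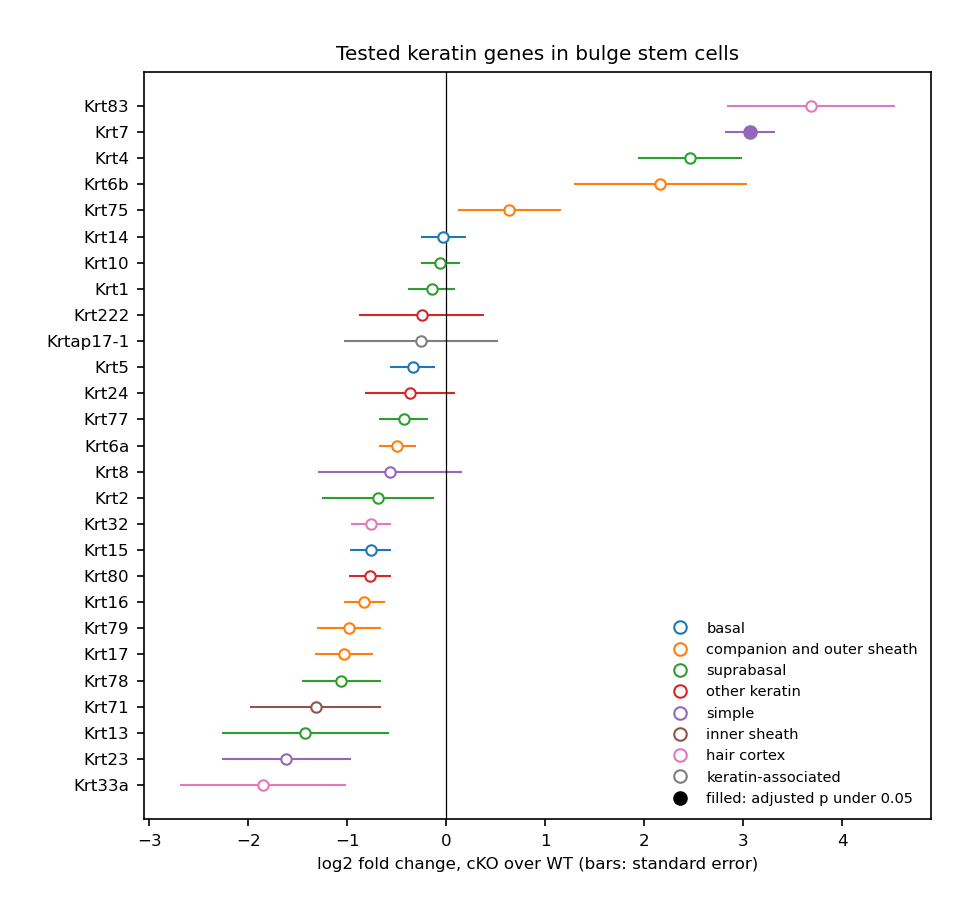
log2 fold change of cKO over WT with its standard error for the 27 genes tested in bulge stem cells, coloured by class, Krtap17-1 included. Krt7, at 3.07, is the filled point past an adjusted p of 0.05, and 22 of the 27 lie left of 0.

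Among the basal keratins, Krt14 was at 7404 and 9533 scaled CPM in cKO and 8819 and 8513 in WT, a log2 of -0.03 (SE 0.23), and the groups overlapped. Krt5, its type II partner, was at 12683 and 14464 in cKO and 18545 and 15832 in WT, a log2 of -0.34 (SE 0.23). Krt15 was at 4736 and 4905 in cKO, against 8067 and 8316 in WT. Both cKO values lay well below both WT values, a log2 of -0.77 (SE 0.21), but the adjusted p was 0.0982 in edgeR. DESeq2 called it (-0.75, adjusted p = 0.000136), as did edgeR without the filter. The per-length ratio of Krt15 to Krt14 was 0.636 and 0.512 in cKO, against 0.910 and 0.972 in WT.

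The outer sheath and companion class had 4 of 6 members with both cKO values below both WT values, against 26.2% of all genes, and 0 called in the main edgeR test. DESeq2 called Krt16 and Krt17, and edgeR without the filter called Krt16, Krt17 and Krt79, lower, and Krt6b, higher. Krt17, a type I keratin of the outer sheath, was at 543 and 320 scaled CPM in cKO and 718 and 1049 in WT (log2 -1.03, SE 0.29, adjusted p = 0.111, edgeR). Krt79, a keratin of the upper follicle and sebaceous duct, was at 327 and 290 in cKO, against 388 and 831 in WT (log2 -0.98, SE 0.32). Krt16 was at 16.8 and 23.4 in cKO, against 37.3 and 34.3 in WT (log2 -0.83, SE 0.21, adjusted p = 0.0806, edgeR). Krt6a, which pairs with them, was at 51.7 and 50.7 in cKO and 61.1 and 83.4 in WT (log2 -0.50, SE 0.18). The companion layer keratin Krt75 was highest in cKO 2, at 2.60 and 6.80 in cKO and 2.81 and 3.27 in WT (log2 0.64, SE 0.52). Krt6b was at 0.80 and 3.85 in cKO and 0.66 and 0.36 in WT, with both cKO values above both WT values (log2 2.16, SE 0.87, adjusted p = 0.232, edgeR), and it was described after its values were seen. On its WT libraries alone it would not have met the filter on low counts. Krt6a and Krt6b are near-identical, so reads could be split between them. The summed class was at 996 and 737 CPM in cKO and 1115 and 1917 in WT.

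Suprabasal keratins were abundant in bulge libraries, and 0 of the 7 tested were called in the main edgeR test. DESeq2 and edgeR with DESeq2 size factors called Krt4 of this class, and edgeR without the filter called Krt4, higher, and Krt78, lower. Krt10 was at 3358 and 3064 scaled CPM in cKO and 3269 and 3430 in WT (log2 -0.06, SE 0.20), Krt1 at 1110.5 and 1314 in cKO and 1086 and 1597 in WT (log2 -0.15, SE 0.24). Krt77, a type II keratin close to Krt1, was at 1737 and 1216 in cKO and 2256 and 1727 in WT (log2 -0.43, SE 0.25). Epidermal markers other than keratins, a list of 6 with Lor and Krtdap, were present in each library too, at 1099 and 829 CPM in cKO and 1174 and 834 CPM in WT, and their part in these levels was not tested. Krt2, the keratin of the upper epidermis, had 29 and 21 reads in cKO and 46 and 30 in WT (log2 -0.69, SE 0.57). The largest positive values below the threshold were those of Krt4, a mucosal keratin, with 70 and 191 reads in cKO and 29 and 13 in WT (log2 2.46, SE 0.53, adjusted p = 0.0534, edgeR), and of Krt83, a hair keratin, with 22 and 38 reads in cKO and 3 and 1 in WT (log2 3.69, SE 0.85, adjusted p = 0.0655). The largest negative values were those of Krt33a, a hair keratin (log2 -1.85, SE 0.84), Krt23, and Krt13, a mucosal keratin (log2 -1.42, SE 0.85). Krt33a and Krt13 had at most 18 reads in any library. They met the filter on low counts only through WT, and Krt83 only through cKO. Their being tested thus rests on the group where they were high. Reads of hair keratins with close copies, such as Krt33a and Krt83, could be split between copies in counting.

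Inner sheath keratins and most hair cortex keratins had few reads in the bulge. Krt71, the type II keratin of the inner sheath, had 9 and 13 reads in cKO and 26 and 23 in WT (log2 -1.32, SE 0.66, adjusted p = 0.337, edgeR). Krt25 had 4 and 4 reads in cKO and 1 and 0 in WT, Krt27 4 and 5 in cKO and 5 and 7 in WT, and Krt28 10 and 5 in cKO and 0 and 3 in WT, and these did not pass the filter. Krt73 had 0 reads in all 4 libraries. Of the cortex keratins, Krt31 had 9 and 8 reads in cKO and 5 and 2 in WT, Krt35 0 and 11 in cKO and 4 and 0 in WT, and Krt86 0 and 10 in cKO and 0 and 2 in WT.

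The bulge count of called members depended on the setting, as did the number tested and the share of all genes called. DESeq2 called 6 of 54 members, against 4.42% of all genes, and edgeR without the filter 12 of 54, against 5.75%. Without cKO library 1 edgeR called 10 of 33, against 9.53%, and without cKO library 2 it called 3 of 31, against 4.45%. It called 2 of 28 without WT library 1, against 2.8%, 1 of 36 without WT library 2, against 1.28%, and 2 of 27 with DESeq2 size factors, against 3.38%. Krt7 was in every one of these sets.

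The second comparison, in hair germ cells by SHERRY2, gave 1 called member. Krtap17-1, a keratin-associated gene of the shaft, rose in cKO. It was 1 of 95 tested members, against 0.0077% of 38953 genes called by limma on log2(normalized count + 1), all of them higher. At an unadjusted p under 0.05 there were 8 members (8.42%), against 4.62% of all genes. Krtap17-1 had 53 and 8 reads in cKO, against 1 and 0 in WT, or 38.9 and 6.53 normalized counts in cKO against 0.98 and 0 in WT. Both cKO values lay above both WT values, and most of the reads came from cKO library 1. By Xist and Y-linked genes that library alone had the male pattern in this dataset. Its sex and other traits of that mouse cannot be told apart. The gene met the filter, a mean of at least 1 over the 4 libraries, only through the cKO group, so it had to differ to be tested. The log2 fold change was 3.62 on that scale (SE 0.69, adjusted p = 0.0179, limma). The call was lost without cKO library 1, without WT library 1, with a pseudocount of 0.1 and without the filter on low means. The log2 fold change was 2.42 to 4.82 with a library left out and 2.42 to 7.61 over all alternatives, positive in each. In the authors' deposited table the log2 fold change was 5.24 with an adjusted p of 0.9997. In cKO library 1 several hair lineage genes were high as well: Lhx2 at 518 CPM, Hoxc13 at 119, Gli1 at 108 and Lef1 at 71.4. In the other 3 libraries they were at most at 67.5, 5.61, 28.7 and 24.6 CPM. Not all hair lineage genes shared this. In normalized counts Msx2 was highest there too, at 33.0 and 18.8 in cKO and 6.85 and 6.32 in WT. Foxn1 was lowest there, at 34.5 and 41.6 in cKO and 53.8 and 44.3 in WT. Sox9 overlapped between the groups, at 52.1 and 63.7 in cKO and 69.5 and 23.7 in WT. The part of these genes in the result was not tested. In the bulge Krtap17-1 had 21 and 9 reads in cKO and 23 and 12 in WT, and the groups overlapped (log2 -0.26). By SMART-seq it had 82 and 114 reads in libraries labelled cKO and 43 and 67 in WT, or 5.998 and 12.7 scaled CPM in libraries labelled cKO, against 3.08 and 5.73 in WT, a log2 of 1.09 (SE 0.55, unadjusted p = 0.103, edgeR) that did not pass.

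**Figure D4:**
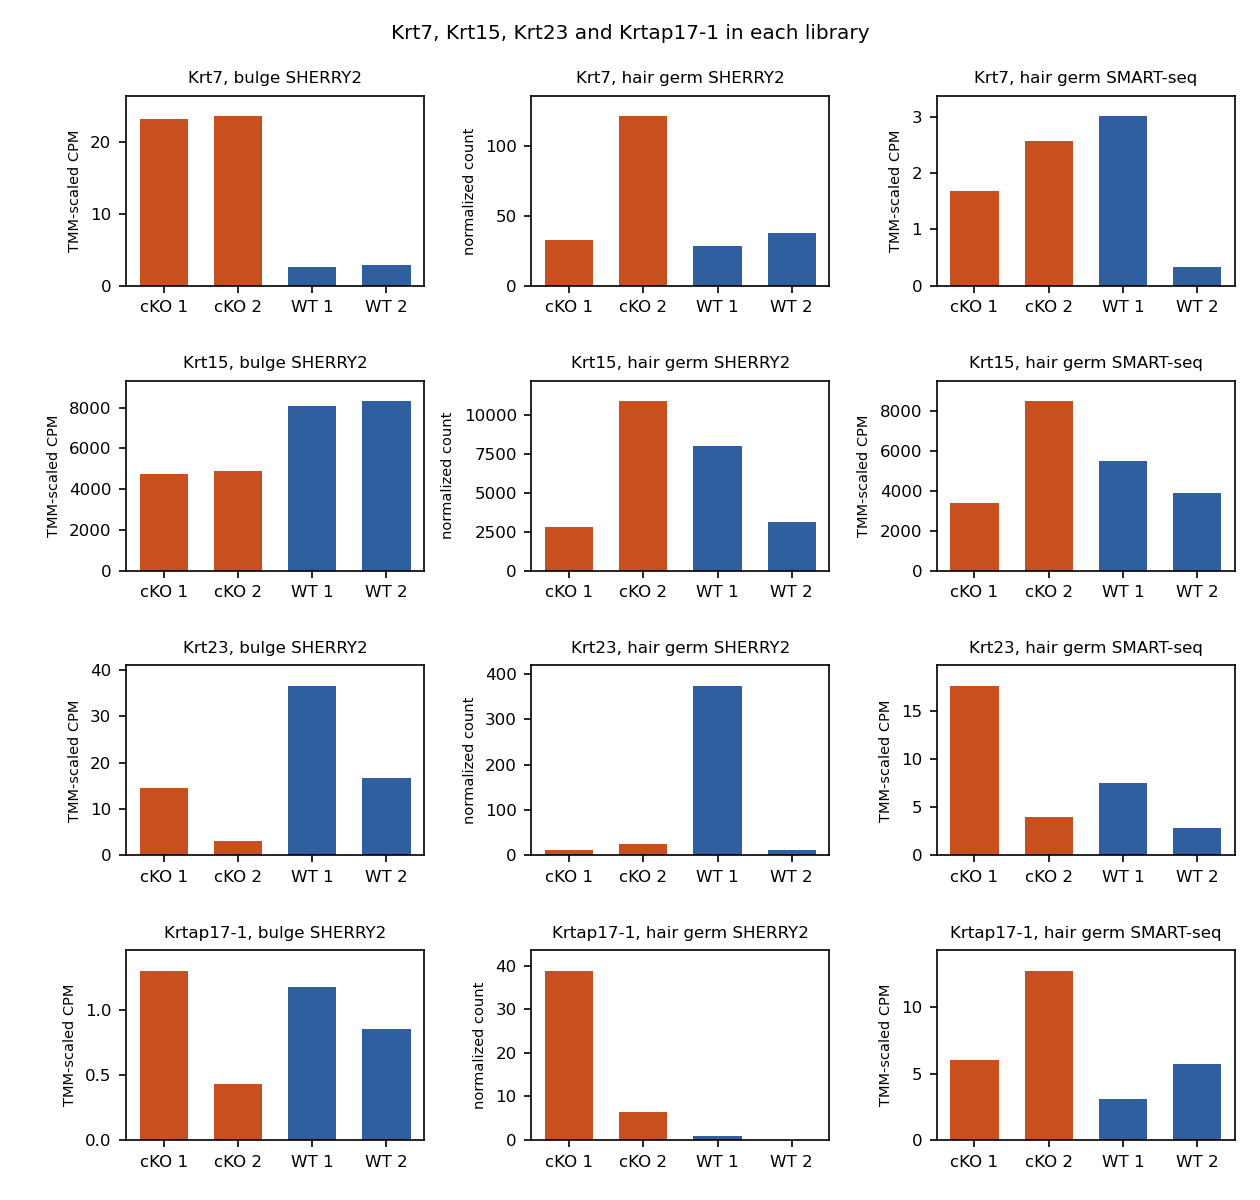
Krt7, Krt15, Krt23 and Krtap17-1 in each library of the 3 datasets, cKO bars left of WT bars, in TMM-scaled CPM (bulge and SMART-seq) or normalized counts (hair germ SHERRY2). Krt7 separates the genotypes in the bulge, Krt23 is high in WT 1 alone in hair germ SHERRY2 at 374 normalized counts, and Krtap17-1 is highest in cKO 1 there at 38.9.

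With edgeR on the whole reads recovered from this table, 1 of 30 tested members was called, against 0.377% of 16707 genes (0.102% higher, 0.275% lower), and it was another gene. At an unadjusted p under 0.05 there were 2 members, against 4.93% of all genes. Krt23 fell in cKO in that fit (log2 -3.54, SE 0.63, adjusted p = 7.6e-05, edgeR), with 16 and 30 reads in cKO and 382 and 8 in WT. In normalized counts the groups overlapped, at 11.7 and 24.5 in cKO and 374 and 12.6 in WT, and without WT library 1 the value was 0.12. Krtap17-1 did not pass the filter of that fit. In limma Krt23 had a log2 of -1.99 (SE 0.73, adjusted p = 0.970).

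WT library 1 stood apart in the suprabasal class. Its 9 suprabasal keratins summed to 12167 CPM, against 2769 and 3353 CPM in cKO and 2261 CPM in WT 2. Krt77 alone had 1235 and 1832 reads in cKO and 7560 and 121 in WT, or 906 and 1496 normalized counts in cKO and 7397 and 191 in WT. Krt10 was at 1157 and 2362 normalized counts in cKO and 6375 and 640.4 in WT, and Krt1 at 925 and 2346 in cKO and 3881 and 843 in WT. The 6 epidermal markers outside the keratins summed to 719 and 1834 CPM in cKO and 6650 and 360 CPM in WT, the same library being highest, and their part in the keratin values was not tested. Lor, the loricrin of the cornified envelope, was at 11.1 and 122 CPM in cKO and 1866 and 18.4 in WT.

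Basal keratins of hair germ SHERRY2 overlapped between genotypes. Krt14 was at 6687 and 18015 normalized counts in cKO and 10892 and 6778 in WT, Krt5 at 5402 and 14718 in cKO and 12596 and 6693 in WT, and Krt15 at 2813 and 10919 in cKO and 8039 and 3156 in WT. For all 3 genes cKO 2 was highest and WT 1 next. Limma with its trend gave these abundant genes standard errors of 4.47 to 6.28 on the log2 scale, too wide to bear on any change. The edgeR values were 0.17 for Krt14 (SE 2.03), -0.24 for Krt5 (SE 2.00) and 0.01 for Krt15 (SE 1.72). Krt17 was at 1440.1 and 2485 normalized counts in cKO and 2562 and 351 in WT, Krt79 at 325 and 732 in cKO and 1033 and 74.3 in WT, Krt6a at 25.7 and 44.9 in cKO and 31.3 and 4.74 in WT, and Krt16 at 68.9 and 63.7 in cKO and 40.1 and 174 in WT. WT 2, the shallowest library, was lowest for Krt17, Krt79 and Krt6a and highest for Krt16.

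Over the 95 tested members, 41 fold changes were positive and 54 negative, with a median log2 of -0.08 against 0.06 over all genes. The groups did not overlap in 24 members, against 32.8% of all genes. Both cKO values lay below both WT values in 15 (15.8%), against 16.4% of all genes, and above in 9 (9.47%), against 16.4%. Without scaling the median of all genes was at a log2 of -0.44 and 73 of 95 members were negative, so directions of small changes in this dataset depend on the scaling. The largest positive values after Krtap17-1 were those of Krt8 (21 and 6 reads in cKO, 5 and 0 in WT; log2 2.02, SE 0.70) and of Krt12, a cornea keratin (4 and 7 reads in cKO, 1 and 0 in WT; log2 1.87, SE 0.82). The largest negative values after Krt23 were those of Krt40 (3 and 0 reads in cKO, 5 and 4 in WT; log2 -1.88, SE 0.75) and Krtap5-3 (1 and 2 reads in cKO, 4 and 6 in WT; log2 -1.75, SE 0.71). Of these, Krt12 met the filter on means only through its cKO libraries. Inner sheath and cortex keratins had few reads: Krt71 had 7 and 16 in cKO and 4 and 7 in WT, Krt25 12 and 8 in cKO and 5 and 2 in WT, Krt31 3 and 12 in cKO and 8 and 7 in WT, and Krt35 6 and 7 in cKO and 3 and 3 in WT.

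The third comparison, in hair germ cells by SMART-seq, called 0 of 33 tested members (0 also at an unadjusted p under 0.05), against 0.0% of 17547 genes called and 1.02% at an unadjusted p under 0.05 (edgeR). DESeq2 called 0 of 73 and edgeR without the filter called 2 of 73, Krt71 and Krt75, both lower, against 0.0% and 0.103% of all genes. Of the 33, 17 fold changes were positive and 16 negative, with a median log2 of 0.05 against -0.02 over all genes. The groups did not overlap in 7 members, against 24.3% of all genes. Both libraries labelled cKO lay below both WT libraries in 2 members (6.06%), against 12.5% of all genes, and above in 5 (15.2%), against 11.8%. The inner sheath class differed 23.0-fold and the suprabasal class 9.001-fold between the WT libraries alone.

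Basal keratins of SMART-seq overlapped between genotypes. Krt5 was at 5236 and 7460.0 scaled CPM in libraries labelled cKO and 7127 and 7402 in WT, Krt14 at 3676 and 4566 in those labelled cKO and 3120.0 and 5812 in WT, and Krt15 at 3409 and 8514 in those labelled cKO and 5522 and 3878 in WT. Krt15 was highest in cKO 2, and the genotypes overlapped for all 3 genes. Krt17 was at 2335 and 2197 in libraries labelled cKO and 1079 and 2285 in WT, overlapping as well.

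Of the 8 inner sheath keratins, 5 were highest in WT library 2. Krt71 was at 28.1 and 8.72 scaled CPM in libraries labelled cKO and 3.94 and 109 in WT, from 384 and 78 reads in libraries labelled cKO and 55 and 1270 reads in WT. The type I keratins Krt25 and Krt28 followed the same order of libraries: Krt25 was at 16.1 and 4.03 in those labelled cKO and 2.00 and 54.0 in WT, and Krt28 at 12.7 and 2.46 in those labelled cKO and 0.86 and 42.6 in WT. Krt73, another type II inner sheath keratin, was at 3.51 and 5.48 in those labelled cKO and 0.43 and 24.02 in WT, and Krt27 at 2.41 and 1.79 in those labelled cKO and 2.72 and 13.1 in WT. The other 3 did not share this: Krt26 was at 1.76 and 1.79 in those labelled cKO and 0.64 and 0.17 in WT, Krt72 at 0.29 and 0.45 in those labelled cKO and 0 and 0 in WT, and Krt74 at 0.15 and 0.89 in those labelled cKO and 0.43 and 0.34 in WT. The class summed to 66.0 and 25.4 CPM in libraries labelled cKO and 10.7 and 246 CPM in WT. The same library had a read for 20 of 54 keratin-associated genes other than Krtap17-1, 101 reads in all, against 2 and 2 genes in libraries labelled cKO and 3 in WT 1. Krt35, the type I keratin of the early cortex, was at 1.68 and 2.24 in those labelled cKO and 0.86 and 9.32 in WT. The 7 hair matrix and shaft markers outside the keratins summed to 135 and 134 CPM in libraries labelled cKO and 92.9 and 255 CPM in WT, and Tchh, the trichohyalin of the inner sheath, was at 16.4 and 21.8 in those labelled cKO and 15.5 and 51.6 in WT. Their part in the keratin values was not tested.

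Suprabasal and companion keratins differed between libraries numbered 1 and 2 in both genotypes. Krt77 was at 483 and 54.0 scaled CPM in libraries labelled cKO and 366 and 24.4 in WT, Krt10 at 363 and 118 in those labelled cKO and 348 and 50.4 in WT, and Krt1 at 71.1 and 12.1 in those labelled cKO and 91.6 and 7.35 in WT. In each, the libraries numbered 1 were high and those numbered 2 low. The reverse held for Krt6a, at 496 and 1145 in libraries labelled cKO and 290 and 1301 in WT, for Krt16, at 58.9 and 214.9 in those labelled cKO and 54.2 and 393 in WT, and for Krt75, at 22.6 and 57.0 in those labelled cKO and 18.7 and 186 in WT. Krt79 was at 2466 and 1020.2 in libraries labelled cKO and 1177 and 718 in WT, again higher in number 1. The libraries numbered 1 had the female and those numbered 2 the male pattern, and 5 melanocyte markers summed to 24.7 and 170 CPM in libraries labelled cKO and 25.1 and 126 CPM in WT, so number, sex and melanocyte RNA cannot be told apart here. Of the 6 epidermal markers outside the keratins, 5 were also higher in the libraries numbered 1, such as Krtdap, at 64.7 and 16.2 CPM in those labelled cKO and 52.4 and 9.17 in WT. Sbsn was higher in those numbered 2, at 385 and 734 CPM in those labelled cKO and 282 and 569 in WT. Being the most abundant of the 6, it set their sum, 494 and 758 CPM in those labelled cKO and 358 and 586 CPM in WT. Their part in the keratin values was not tested.

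**Figure D5:**
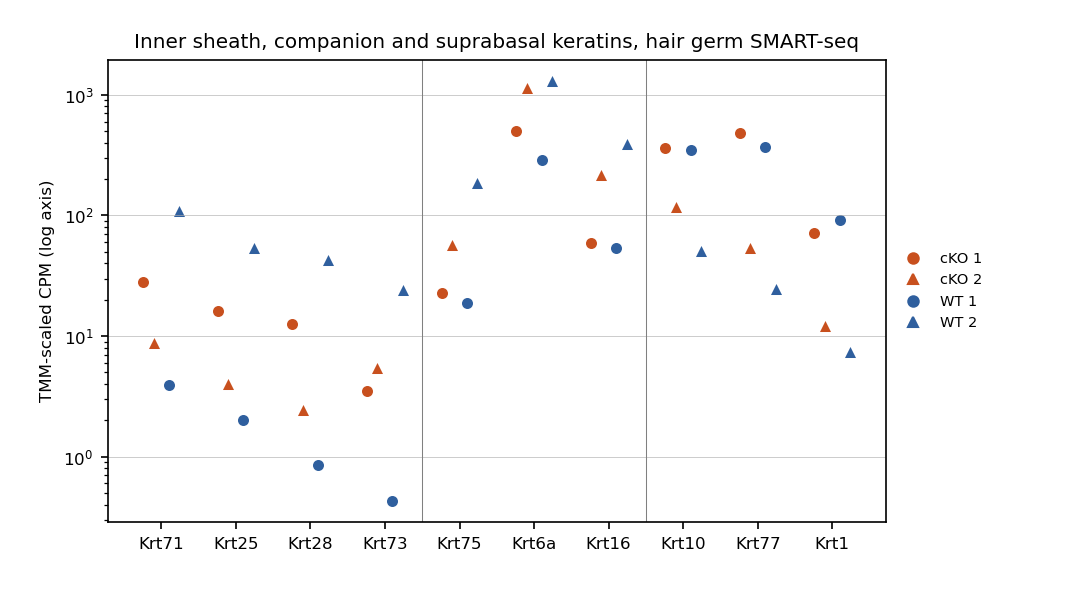
TMM-scaled CPM (log axis) of inner sheath (left), companion and outer sheath (middle) and suprabasal keratins (right) in the 4 hair germ SMART-seq libraries, cKO left of WT. The 4 inner sheath keratins drawn are highest in WT 2; Krt6a, Krt16 and Krt75 are higher in both libraries numbered 2, and Krt10, Krt77 and Krt1 in both numbered 1.

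The largest positive fold changes by SMART-seq were those of Krt26, an inner sheath keratin, with 24 and 16 reads in libraries labelled cKO and 9 and 2 in WT (log2 2.07, SE 0.87), of Krt84, with 0 and 44 reads in those labelled cKO and 4 and 21 in WT (log2 1.22, SE 1.85), and of Krt4 (log2 1.11, SE 0.77). The largest negative ones were those of Krt27, with 33 and 16 reads in those labelled cKO and 38 and 153 in WT (log2 -1.89, SE 0.81), of Krt71 (log2 -1.60, SE 1.39) and of Krt42, a type I keratin, with 9 and 13 reads in those labelled cKO and 22 and 54 in WT (log2 -1.56, SE 0.80). None of them passed the threshold. Krt26 and Krt4 met the filter on low counts only through the libraries labelled cKO, so their being tested rests on the group where they were high. Krt42 would not have met it on the libraries labelled cKO alone. In these count columns 73.7 to 76.7% of values from 1 to 20 were even, against 42.7 to 45.3% in the SHERRY2 datasets.

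Genes around the keratins were read from a pair of lists chosen with earlier results of these data known. Among 24 anchors and cross-linkers of keratin filaments, such as plectin (Plec), desmoplakin (Dsp) and the transglutaminases, 20 were tested in the bulge and 0 were called, with a median log2 of 0.03. Among 20 regulators of keratin genes, all tested there, 1 rose and 1 fell. Of all genes tested in the bulge, 3.04% were called. Notch1, a receptor that drives keratinocyte differentiation, was at 977 and 970.5 scaled CPM in cKO and 372 and 236 in WT (log2 1.68, SE 0.24, adjusted p = 0.0161, edgeR). Foxq1, a forkhead factor needed for the hair medulla, was at 9.84 and 12.9 in cKO and 38.5 and 51.6 in WT (log2 -1.98, SE 0.23, adjusted p = 0.00738, edgeR). Trp63, the p63 factor of basal keratinocytes, was at 811 and 795 in cKO and 1361 and 938 in WT and did not pass (log2 -0.52, SE 0.22). In hair germ cells 0 members of both lists were called in either dataset, against 0.0077% of all genes by SHERRY2 and 0.0% by SMART-seq. There Notch1 was at 274 and 416 normalized counts in cKO and 224 and 96.4 in WT by SHERRY2. By SMART-seq it was at 678 and 1094 scaled CPM in libraries labelled cKO and 465 and 1154 in WT.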

How the data were processed

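Per the file headers, the authors deposited read counts and FPKM per gene for the bulge and read counts for hair germ SMART-seq. For hair germ SHERRY2 the authors deposited a table in the layout of DESeq2 results, holding a normalized signal for each library, a log2 fold change, its error, a score and p-values. Within 0.01 reads, 100% of its normalized values gave whole numbers once multiplied by the size factor of the library, and the reads were recovered so. RPKM was computed from reads and the exonic lengths of the bulge table, and followed the deposited FPKM within 0.495%. The submitters' processing notes name STAR, HISAT2, featureCounts and DESeq2 among other tools, and the builds GRCm38, mm10 and GRCm39. Positions in the bulge table differ from RefSeq's on GRCm38.p6, so coordinates are those of RefSeq start regions alone.

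Counts of the bulge and of SMART-seq were fitted in edgeR 4.0.16 under R 4.3.3 (TMM, filterByExpr, quasi-likelihood). The SE printed with edgeR values was computed back from the test, as the absolute log2 fold change over the square root of its F statistic. Hair germ SHERRY2 was fitted in limma 3.58.1 (trend) on log2(normalized count + 1) for means of at least 1, a scale that understates changes of low genes. DESeq2 1.42.0 was an alternative. Tests were two-sided, with genotype as the only term, and p-values were adjusted by Benjamini-Hochberg over all genes. The fits were also run on simulated data with 200 changed genes. Those genes had at least 200 reads in sum and all genes shared a single dispersion. The simulation thus does not bear on genes with few reads. With 2 libraries a group, labelled as separate mice, few animals stand behind each p-value. Variances were moderated with those of all genes, so a p-value does not measure the spread between a gene's mice alone.

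Fold changes are given for members past an adjusted p of 0.05, for the 3 largest positive and negative values per dataset and, in the bulge, for the highest members and a list for each class. A gene of that list was not analysed here. Members, classes and lists were chosen with earlier results of these data known. Normalization, filter, tool, pseudocount, each library left out and a replicate block were tried as alternatives.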

Additional observations from a re-analysis of the deposited data

Results flagged for a closer look

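The contrast as labelled gave opposite directions between datasets for a pair of keratins. In both datasets compared, every cKO library lay on one side of every WT library. Both genes rest on SMART-seq, whose labels Alkbh5 did not bear out. Of all genes, the groups did not overlap in 50.9% in the bulge, 32.8% in hair germ SHERRY2 and 24.3% by SMART-seq. Krt80, a type II keratin of differentiating epithelia, had a log2 fold change of -0.77 in the bulge, with 480 and 379 TMM-scaled CPM in cKO and 840 and 630 in WT. By SMART-seq in hair germ cells it was 0.57, with 213 and 263 in libraries labelled cKO and 199 and 121 in WT. Krt42 had a log2 of 0.79 in hair germ SHERRY2, with 11.7 and 12.2 normalized counts in cKO and 8.81 and 4.74 in WT. By SMART-seq it was -1.56, with 0.66 and 1.45 scaled CPM in libraries labelled cKO and 1.57 and 4.62 in WT. None of these values passed an adjusted p of 0.05 in the tests above, although DESeq2 called Krt80 in the bulge (adjusted p = 0.00367), and the difference between datasets was not tested.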

How the results depend on the processing

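Krt7 kept its call in the bulge under each alternative run, while the count of called members did not stay at 1. It was 2 with DESeq2 size factors, 6 in DESeq2, 12 without the filter and 1 to 10 with a library left out, against 476 genes in the main test and 1191, 1549 and 218 to 1601 genes in DESeq2, without the filter and with a library left out. With the replicate block it was 2 (Krt7 and Krt23), against 3.23% of all genes. The numbers do not pair mice by the labels, and deviations of same-numbered libraries correlated at -0.072 in the bulge, -0.214 in hair germ SHERRY2 and 0.230 by SMART-seq. In hair germ SHERRY2 the block called 1 member, against 0.0128% of all genes, and by SMART-seq 0, against 0% of all genes. In hair germ SHERRY2 the count was 0 with a pseudocount of 0.1, without the filter and in the authors' deposited table. In these settings 0% of all genes were called too. The count was 2 with the numbers crossed, an alternative chosen after seeing the data, against 1.20% of all genes. The edgeR fit on recovered reads was also run with each library left out, again chosen after seeing the data. By SMART-seq the count was 2 without the filter, against 0.103% of all genes.

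With a library left out, signs turned for 6 of 27 tested members in the bulge, 57 of 95 in hair germ SHERRY2 and 25 of 33 by SMART-seq. Of those printed with a fold change, these were Krt1 (-0.40 to 0.15), Krt14 (-0.24 to 0.17), Krt75 (-0.23 to 1.19) and Krtap17-1 (-1.21 to 0.34) in the bulge, Krt23 in hair germ SHERRY2 (-4.38 to 0.40, and 0.12 without WT library 1 in edgeR on recovered reads), Krt14 (-0.48 to 0.72), Krt5 (-0.91 to 0.32) and Krt15 (-1.04 to 0.70) there in edgeR on recovered reads, and Krt71 (-2.67 to 2.23) and Krt84 (-6.77 to 3.04) by SMART-seq. Krt7 (-0.50 to 2.59) and Krt23 (-0.35 to 1.95), printed there as levels, turned too. On a per-length share the log2 difference of class sums in the bulge was -0.017 for basal, -0.61 for simple and 0.16 for suprabasal keratins and -0.015 for all keratins, against -0.17, 0.28, -0.01 and -0.17 on shares of reads. The cause of these changes was not tested. A count under 3 reads cannot be told from 0, which covers most keratin-associated genes, and 488648 reads in hair germ SHERRY2 WT 2 limit every low value there.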
